A study of Mus musculus with 1814 samples.

Results

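The PB wells and the DZ wells were germinal center B cells of mice, sorted singly into the same plate, GC4, of experiment 1. Both sets carried the labels Dec positive, 30 h and dark zone (the group column of the authors' cell table gives 36 h for the DZ wells it lists, and its time column 30 h), so only the PB or DZ in the well name set them apart, and the labels did not say what PB stands for. Wells were taken by that name and kept with 1000 or more genes with counts above 0. This kept 40 of 40 PB wells and 47 of 48 DZ wells, 87 of the 1814 wells of the series. PB wells filled plate columns 7 to 11 and DZ wells columns 1 to 6, so the name and the side of the plate cannot be told apart. The labels gave no genotype and named no animal. Full-length transcripts of each cell were read with SmartSeq2, which adds no molecular identifiers. Each set was therefore treated as 1 sample, and no test between them was run: wells are cells of that sample and not replicates.

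Germinal centers are the sites in lymph nodes where activated B cells mutate their antibody genes and are selected. In the dark zone the cells divide and mutate, helped by the transcription factor FOXO1 and the chemokine receptor CXCR4. In the light zone they present antigen on MHC class II to T cells, and selected cells express CD83, CD86 and NF-kB targets. Cyclin D3, the product of Ccnd3, binds CDK4 and CDK6 and allows the dark zone cells to keep entering the cell cycle. Cells that leave toward antibody secretion switch on Prdm1, Irf4 and Xbp1 and lower the B cell program.

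Counts per kept PB well ran from 8428 to 4450430 with a median of 336473, and genes per well from 1148 to 13584 with a median of 3263.5. The DZ wells had 65219 to 4550994 counts with a median of 381551, and 1132 to 6170 genes with a median of 3652. PB wells A11 and B11 stood apart with 13356 and 13584 genes, against at most 6170 in any other kept well of the experiment. The 4 PB wells with 2000000 or more counts held 46.6% of the PB reads, and 1 DZ well, A2, held 21.035% of the DZ reads. Sums therefore lean on few wells. Calls and most list medians below use both the ratio of summed counts and the ratio of the mean of per-cell CPM (counts scaled to the same total in every well). The second gives each well the same weight. Many single genes are given by means only. Wells of plate row F had a lower share of mitochondrial counts in both sets, with medians of 2.74% in PB and 2.23% in DZ against 11.9% and 12.5% in the other rows. The highest shares were 36.6% in PB well H10, with 1148 genes, and 31.7% in DZ well C2, with 1132 genes. These wells had the fewest genes of their sets and set the low ends of some ranges below, such as those of class II genes. The part of row, depth and mitochondrial share in the results was not tested.

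**Figure D1:**
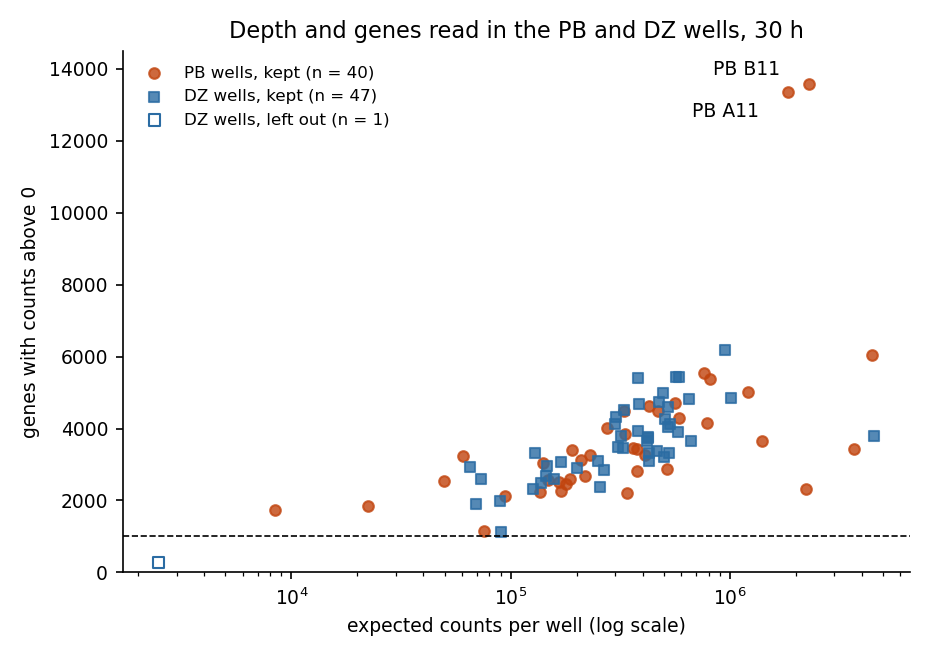
Expected counts (log axis) against genes with counts above 0 in every PB and DZ well, with the limit of 1000 genes dashed. Apart from PB A11 and PB B11, the kept wells of both sets lie between 1132 and 6170 genes.

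The identity of the cells was that of germinal center B cells in both sets. Ms4a1, Cd79a, Cd79b and Pax5, genes that mark B cells, were read in 39 or 40 of 40 PB wells and in 46 or 47 of 47 DZ wells. All 25 genes of the germinal center B cell list reached 20 CPM in either set by summed counts, which was the minimum for a gene to enter a count. Of the 14 T cell markers, 8 were at 0 in every well, among them Cd3e, Cd3g, Cd4, Cd8a and Trbc2. The summed level of all 14 ran from 0 to 1163 CPM in PB wells, with a median of 2.53. In DZ wells it ran from 0 to 1664 CPM, with a median of 0. A T cell marker was read in 21 of 40 PB and 18 of 47 DZ wells, and a myeloid marker in 5 and 9. No well of either set read 3 or more T cell markers, or 3 or more myeloid markers. PB wells A11 and B11 each read 1 T cell and 2 myeloid markers, and PB B10 read 2 and 1.

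Genes of cell division were lower in the PB wells. Of the 64 members of the mitosis list at 20 CPM, which covers the spindle, the kinetochore and the mitotic kinases, 51 were lower by both measures and 2 higher by both. The summed level of the whole list per well was 127.1 to 37142 CPM in PB with a median of 5745, and 22.2 to 39575 CPM in DZ with a median of 12222. The sets overlapped over nearly their whole range, and 12 of 40 PB wells (30.0%, exact 95% interval 16.6 to 46.5%) lay above the DZ median. The median of the list was a log2 ratio of -0.95 by sums and -0.53 by means, against -0.09 and 0.00 over all 6353 genes at 20 CPM. Without the 5 wells of 2000000 or more counts, 4 PB and 1 DZ, the median moved to -0.12 by sums and -0.34 by means, and 33 members were lower and 13 higher by both. Such intervals cover counting error only and take wells as independent.

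With each well thinned to 60000 reads, which left out 3 PB wells and no DZ well, PB wells read fewer division genes by the median. Over all genes, a thinned PB well read a median of 2640 genes and a DZ well 2872. Of the 64 division genes, a PB well read 3 to 63 with a median of 19, and a DZ well 2 to 61 with a median of 36. Ccna2, cyclin A2 of S phase and mitosis, is an example. It was at 0 to 2249 CPM in PB wells with a median of 0, and at 0 to 2472 CPM in DZ wells with a median of 467. It was read in 16 of 40 PB wells and 34 of 47 DZ wells, and after thinning in 14 of 37 and 32 of 47. The mean was 255 ± 474 CPM (SD, n = 40) in PB and 516 ± 532 CPM (SD, n = 47) in DZ, a log2 ratio of -1.01, and -1.24 by sums. The highest PB wells reached the level of the highest DZ wells.

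**Figure D2:**
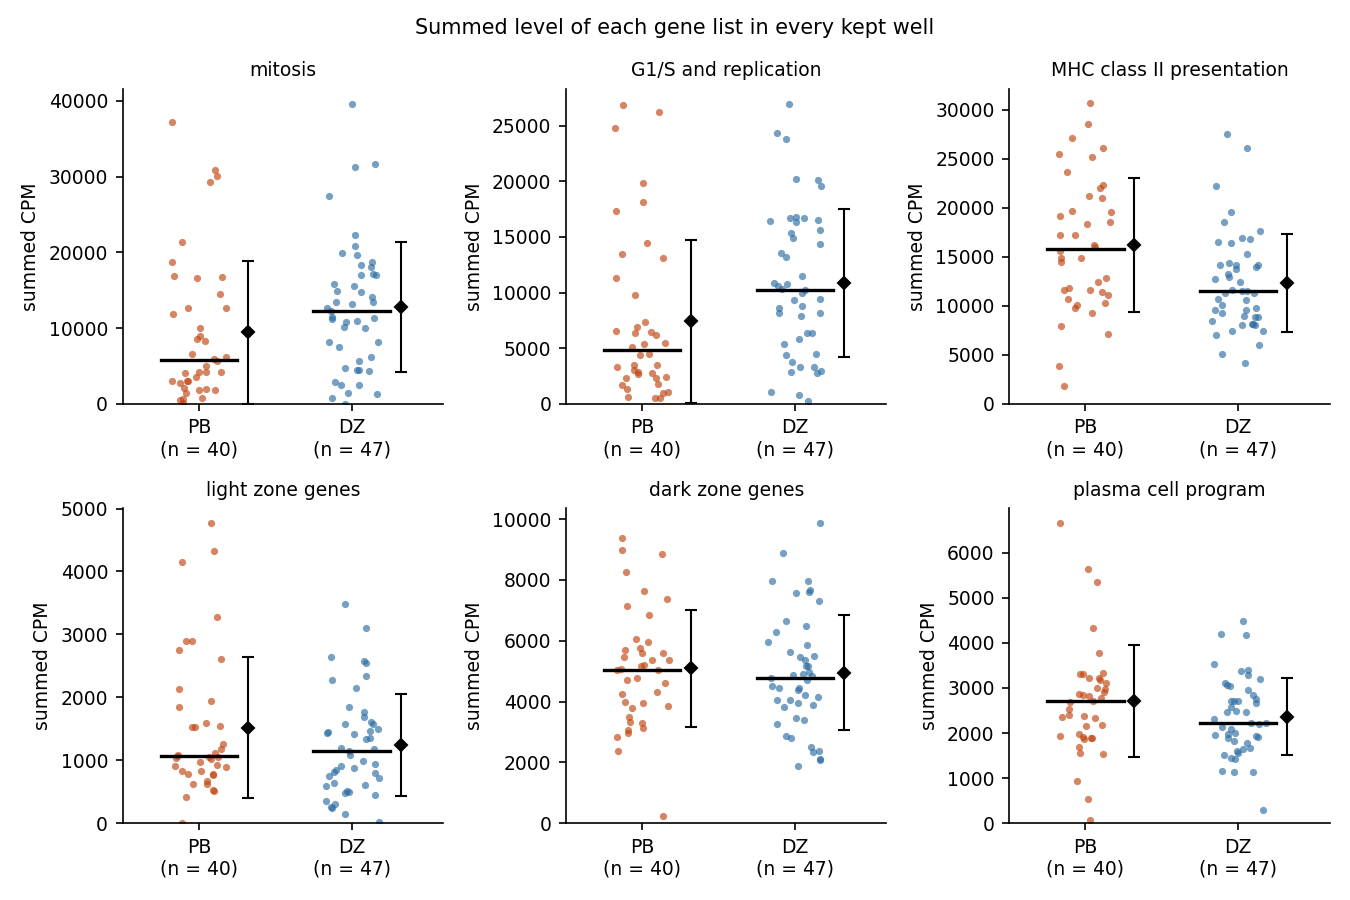
Summed CPM of 6 gene lists in every kept well (points), with the median (bar) and the mean ± SD over wells (diamond; the lower arm stops at 0). The PB medians of mitosis and of G1/S and replication, 5745 and 4810 CPM, lie below the DZ medians of 12222 and 10194 CPM.

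A gene was called higher or lower when it differed at least 2-fold in the same direction by both measures, on the log2(CPM + 1) scale. Of all 6353 genes, 547 (8.61%) were called higher and 586 (9.22%) lower in the PB wells. Plates of the Dec positive light zone wells of 12 h (called light zone plates from here), which carry the same labels, differed from each other by the same rule in 13.3% to 14.6% of genes in either direction, against 17.8% between the PB and DZ wells. Those plates held 63, 60 and 58 kept wells against 40 PB and 47 DZ wells, so these shares are not matched in well number. The part of well number in them was not tested. Without the 5 deep wells, 246 of the 547 and 330 of the 586 were still called. Among the 1061 genes at 200 CPM or more, 29 were called higher (2.73%) and 40 lower (3.77%).

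In the mitosis list 11 of 64 members were called lower, 17.2% against 9.22% of all genes. None was called higher, against 8.61% of all genes. Ccnb1, the mitotic cyclin B1, was at 212 ± 381 CPM in PB and 425 ± 497 CPM in DZ wells (mean ± SD), with medians of 0 and 295 CPM and log2 ratios of -1.21 by sums and -1.003 by means. Plk1, a kinase of mitotic entry and exit, had log2 ratios of -1.72 and -1.09 and was read in 14 PB and 26 DZ wells. Aurka, the kinase of the spindle poles, had -2.49 and -1.30, although DZ well A2 alone held 58.8% of its DZ reads. Besides Ccna2 above, the kinetochore genes Ndc80, Knl1, Bub1 and Ttk, the shugoshin Sgo2a, the spindle gene Hmmr and the survivin gene Birc5 made up the rest of the calls. Without the 5 deep wells, 4 of the 11 were still called lower: Hmmr, Ndc80, Sgo2a and Knl1. Among all genes, 330 of the 586 called lower were still called. Mki67, the marker of proliferation, was not called: it was at 773 ± 1010 CPM in PB and 936 ± 744 CPM in DZ, with log2 ratios of -0.72 and -0.28. Cdc25b, a phosphatase that activates CDK1, went the other way at 729 ± 644 CPM in PB against 547 ± 661 CPM in DZ.

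The CCAAT box is shown here in the promoters of 4 called mitotic genes, out of the 6 that hold it in the nearest 100 bases. The other 4 of the 10 called members with a promoter, Birc5, Ndc80, Sgo2a and Knl1, do not hold it there, and the last 3 of these are among the calls that remained without the deep wells. The windows are the 100 bases before the start of each gene, from RefSeq on GRCm38.p6 and read 5′ to 3′ on the gene's strand, with CCAAT or its reverse complement ATTGG in capitals, the box bound by NF-Y.
Ccnb1 (chr13:100786487-100786586, minus strand): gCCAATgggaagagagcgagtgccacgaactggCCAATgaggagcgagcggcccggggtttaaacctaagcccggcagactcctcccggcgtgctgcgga
Plk1 (chr7:122159335-122159434, plus strand): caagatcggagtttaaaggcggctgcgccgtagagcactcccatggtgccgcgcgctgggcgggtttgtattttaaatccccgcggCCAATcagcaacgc
Aurka (chr2:172370571-172370670, minus strand): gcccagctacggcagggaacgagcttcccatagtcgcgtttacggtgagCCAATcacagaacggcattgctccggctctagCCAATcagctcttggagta
Hmmr (chr11:40733438-40733537, minus strand): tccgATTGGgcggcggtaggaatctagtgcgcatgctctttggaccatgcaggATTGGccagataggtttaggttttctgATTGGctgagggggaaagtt
Over the window of 250 bases before to 50 after the start, CCAAT on either strand was in 40 of the 55 mitosis promoters found (72.7%) and in 37.9% of all 27025 promoters. The motif TTTGAA, or TTCAAA on the other strand, the core of the cell cycle homology region, was in 38 of 55 (69.1%) against 18.1%. Of the 10 called members with a promoter, 7 held CCAAT and 6 held TTTGAA. The G1/S and replication promoters held TTTGAA in 5 of 37 (13.5%) and CCAAT in 24 of 37 (64.9%), and those of class II presentation, a list higher in PB wells, held TTTGAA in 0 of 13 and CCAAT in 10 of 13 (76.9%). These are letter matches in a window and no sites.

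Genes of the G1/S transition and of DNA replication were lower too. Of 43 members of that list, 35 were lower by both measures and 7 higher by both, with a median log2 ratio of -0.85 by sums and -0.57 by means, and of -0.28 and -0.42 without the 5 deep wells. The call rule gave 4 lower, 9.30% against 9.22% of all genes (Mcm10 and Orc6 of origin licensing and firing, Chaf1b of chromatin assembly and Tyms of thymidylate synthesis). It gave 1 higher, Orc1 of the origin recognition complex, 2.33% against 8.61% of all genes. Without the 5 deep wells the calls of Orc6 and Chaf1b were lost. The helicase subunit Mcm6 was the most abundant, at 605 ± 878 CPM in PB and 941 ± 893 CPM in DZ (mean ± SD), with medians of 64.998 and 692 CPM. Its log2 ratios were -1.56 and -0.64, so it did not pass by means. The list summed to a median of 4810 CPM in PB wells and 10194 CPM in DZ wells, and after thinning a PB well read a median of 19 and a DZ well of 29 of the 43 genes. Of the PB wells, 10 of 40 lay above the DZ median.

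Ccnd3 itself (chromosome 17, 47505051 to 47599691 in GENCODE M21) was lower in PB wells without reaching the fold rule. It ran from 0 to 4184 CPM in PB with a median of 553, and from 0 to 3322 CPM in DZ with a median of 1129. The sets overlapped, and the gene was read in 38 of 40 PB and 46 of 47 DZ wells. By sums it was at 769 CPM (exact Poisson 95% interval 758 to 779) against 1474 CPM (1458 to 1491), a log2 ratio of -0.94. By means it was at 793 ± 777 against 1114 ± 812 CPM (SD), a log2 ratio of -0.49, and without DZ well A2 the sums gave -0.56. Light zone plates of 12 h had means of 500 to 734 CPM, and the dark zone wells of 30 h had 534 CPM in experiment 3 and 952 CPM in experiment 4.

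Around Ccnd3, 11 of the 17 members of the list of G1 cyclins, their kinases and E2F factors at 20 CPM were lower by both measures and 1 higher by both. The median log2 ratio was -0.93 by sums and -0.42 by means. Without the 5 deep wells 10 were lower and 5 higher, with a median of -0.30 by sums and -0.18 by means. Cdk4, the kinase partner of D cyclins, was at 233 CPM in PB and 311 CPM in DZ by means, with log2 ratios of -0.93 and -0.42. Of the 17, 2 were called lower (11.8% against 9.22% of all genes) and 1 higher (5.88% against 8.61%). E2f7, a repressor of the cycle, was called lower at 20.6 against 52.9 CPM by means, and its relative E2f8 stood at 124.3 against 246 CPM without passing by means. Tfdp2, the dimer partner of E2F factors, was called lower as well, at log2 ratios of -1.10 and -1.92, a call lost without the 5 deep wells. E2f6 was called higher, but 96.8% of its PB reads lay in 1 well. Ccnd1 and Ccnd2, the other D cyclins, stayed below 2 CPM in both sets, and Cdkn1a and Cdkn2a, inhibitors of the cycle, were at 0 in every well.

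**Figure D3:**
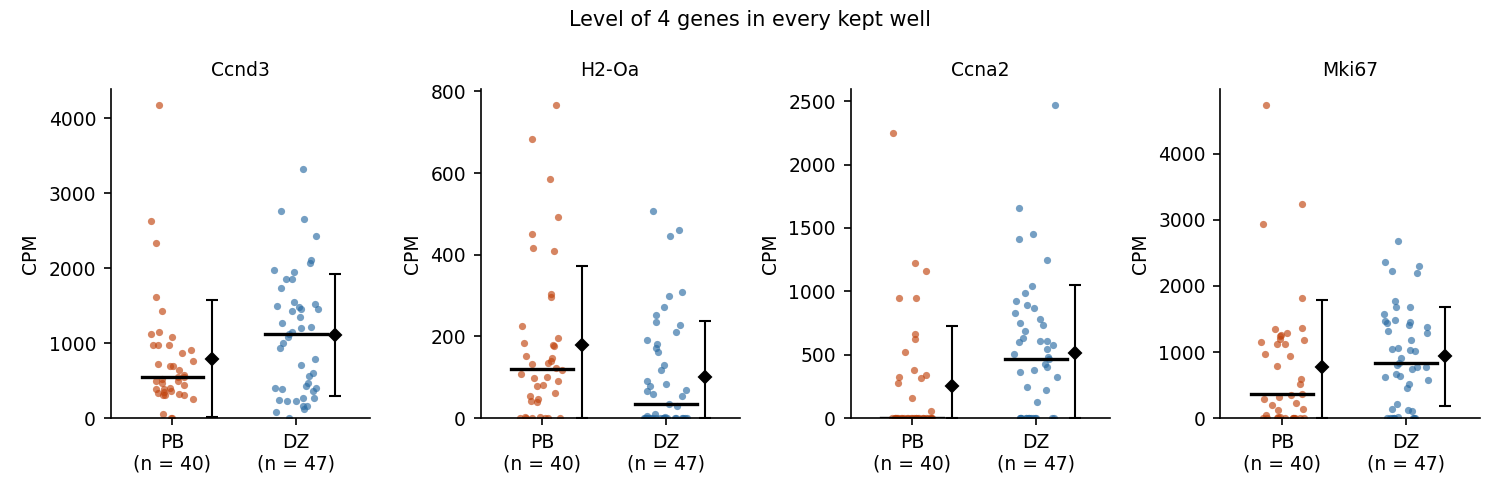
CPM of Ccnd3, H2-Oa, Ccna2 and Mki67 in every kept well (points), with the median (bar) and the mean ± SD over wells (diamond; the lower arm stops at 0). The medians of Ccnd3 were 553 CPM in PB and 1129 CPM in DZ wells, and those of H2-Oa 120 and 33.7 CPM.

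H2-Oa (chromosome 17, 34092340 to 34095234) encodes the alpha chain of H2-O, which tempers the loading of peptides onto class II. It ran from 0 to 767 CPM in PB wells with a median of 120, and from 0 to 508 CPM in DZ wells with a median of 33.7. It was read in 34 of 40 PB wells and 28 of 47 DZ wells, and after thinning in 31 of 37 and 24 of 47. By sums it was at 252 CPM (246 to 258) against 64.3 CPM (60.96 to 67.8), a log2 ratio of 1.96. By means it was at 178.1 ± 195 against 101.3 ± 136.6 CPM (SD), a log2 ratio of 0.81, so the fold rule was not met. Without the 5 wells of 2000000 or more counts the sums gave 0.31. The size of the difference in sums thus rests on the deep wells, 1 of which held 36.8% of the PB reads of the gene.

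The class II genes were mostly higher in PB wells, although none met the fold rule. Over all genes, 8.61% were called higher and 9.22% lower. Of the 15 members at 20 CPM, 12 were higher by both measures and none lower by both, with a median log2 ratio of 0.76 by sums and 0.45 by means, and of 0.30 and 0.37 without the 5 deep wells. H2-Aa, the alpha chain of I-A, was at 2528 ± 1607 CPM in PB and 1783 ± 1105 CPM in DZ (mean ± SD). H2-Ab1, H2-Eb1 and the peptide editor H2-DMa stood at 3690 against 2661 CPM, 1978 against 1419 CPM and 403 against 261 CPM by means. The invariant chain gene Cd74 was at 4967 against 4005 CPM, and Ciita, the coactivator of class II transcription, at 524 against 450 CPM by means but lower by sums (-0.31). Per well the list summed to 1869 to 30654 CPM in PB with a median of 15802, and to 4179 to 27500 CPM in DZ with a median of 11483. After thinning, wells of both sets read a median of 12 of the 15 genes. Of the PB wells, 29 of 40 (72.5%, 56.1 to 85.4%) lay above the DZ median, and the light zone plates had means of 20022 to 20327 CPM. The mean was 16203 CPM in PB and 12349 CPM in DZ wells, and the dark zone wells of 30 h had 21188 CPM in experiment 4, above both, and 9181 CPM in experiment 3, whose table lacks 9 of the members.

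Of the light zone genes, 14 of 29 reached 20 CPM. Of these, 4 were called higher (28.6% against 8.61% of all genes) and none lower. Nfkbia and Tnfaip3 were still called without the 5 deep wells. The median log2 ratio was 0.73 by sums and 0.29 by means with all wells, and 0.27 and 0.01 without the deep ones. Cd86, a costimulatory ligand, was at 142.2 ± 257 CPM in PB and 61.5 ± 130.6 CPM in DZ (mean ± SD), with log2 ratios of 1.89 and 1.195, but leaving out 1 well took the first to 0.59. Nfkbia, the inhibitor of NF-kB that NF-kB itself induces, had log2 ratios of 1.86 and 1.27. Tnfaip3, the deubiquitinase A20, had 1.596 and 1.68 and was read in 6 PB and 3 DZ wells. Both also belong to the NF-kB list, of which 18 members reached 20 CPM, 9 higher and 8 lower by both measures. Of the 18, 3 were called higher (16.7% against 8.61% of all genes) and 1 lower, Tnip1 (5.56% against 9.22%). The median of that list was 0.28 by sums and -0.0015 by means. Without the 5 deep wells it was 0.03 and -0.20, and Tnip1 was still called lower. Nr4a1, an immediate early gene, was read in 2 PB wells and 1 DZ well, so its call rests on 1 well with 99.1% of the PB reads. Cd83 was at 397 ± 645 against 157.4 ± 296 CPM by means, a log2 ratio of 1.33, but reached 0.92 by sums and was not called. Myc and Il4i1 were at 6.202 and 2.53 CPM in PB by means, against 82.8 to 161.4 CPM and 221 to 332 CPM on the light zone plates. The summed light zone list was at 1518 ± 1122 CPM in PB and 1243 ± 806 CPM in DZ wells (mean ± SD), while the medians had the other order, 1062 and 1140 CPM. Both lay below the 4930 to 5831 CPM of those plates. After thinning, a PB well read a median of 5 and a DZ well of 4 of the 14 genes.

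The dark zone genes differed little between the sets. Of 15 members at 20 CPM none was called, against 8.61% of all genes higher and 9.22% lower. The medians were -0.04 by sums (0.14 with TMM factors and 0.18 with DESeq2 size factors) and -0.10 by means. Hmces and Neil1, which act on damaged bases and abasic sites, stood at 784 against 850 CPM and at 519 against 557 CPM by means. Mtf2, a Polycomb cofactor, was at 144.1 against 295 CPM, short of 2-fold by sums (-0.91). Cxcr4 was low in both sets, at 26.6 and 17.6 CPM. The summed list was at 5091 ± 1927 CPM in PB, 4943 ± 1887 CPM in DZ, 5076 ± 2852 and 4922 ± 2730 CPM in the dark zone wells of 30 h of experiments 3 and 4, and 1343 to 1649 CPM on the light zone plates.

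**Figure D4:**
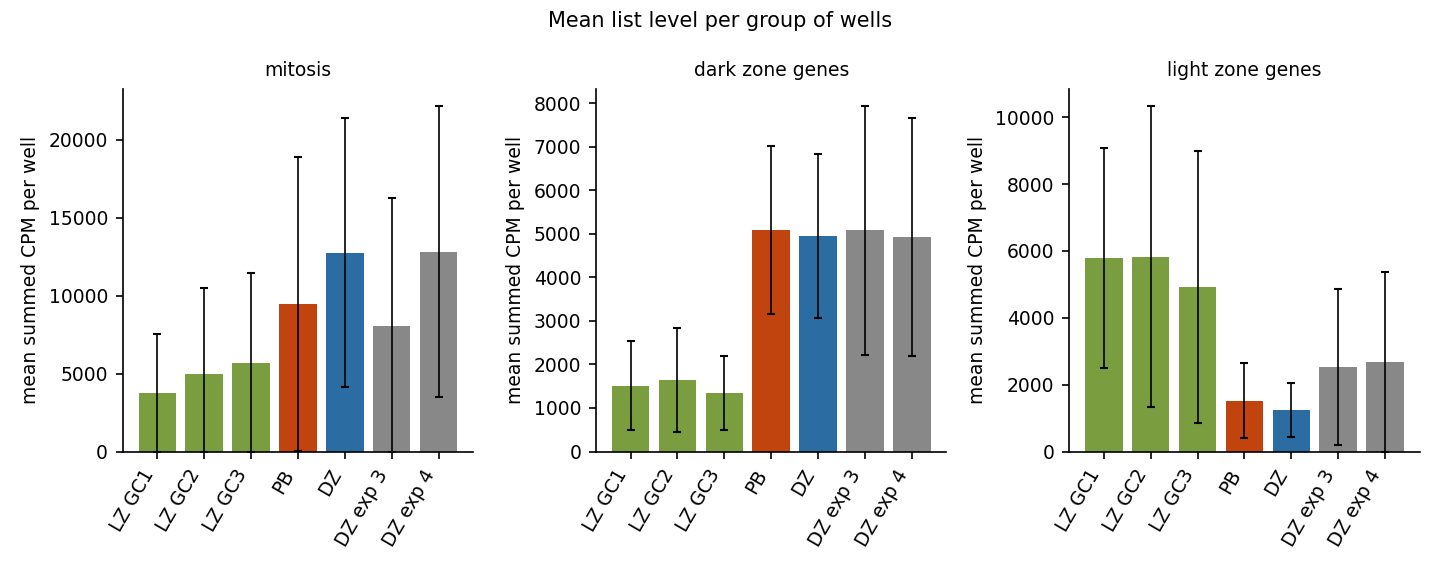
Mean ± SD over wells of the summed CPM of 3 lists on the light zone Dec+ plates of 12 h (LZ GC1 to GC3), in the PB and DZ wells, and in the dark zone wells of 30 h of experiments 3 and 4 (lower arms stop at 0). For dark zone genes PB and DZ (5091 and 4943 CPM) lie with the other dark zone wells, and for mitosis PB lies at 9450 CPM, below the DZ wells at 12760 CPM and within the 8080 to 12806 CPM of the dark zone wells of experiments 3 and 4.

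Of the genes of antibody-secreting cells, 11 of 24 reached 20 CPM. Of these, 6 were higher and 1 lower in PB wells by both measures, and none was called. The median log2 ratio was 0.54 by sums and 0.28 by means. Without the deep wells it was 0.16 by sums and 0.45 by means, with 8 members higher and 2 lower by both. For the summed list, 26 of 40 PB wells (65%, 48.3 to 79.4%) lay above the DZ median. After thinning, wells of both sets read a median of 7 of the 11 genes. Prdm1, the master regulator of antibody-secreting cells, was at 0 in all 87 wells, as were Sdc1 and Tnfrsf17, their surface markers. Irf4 was at 1.39 CPM in PB and 1.44 CPM in DZ by means. Xbp1, the factor of the secretory apparatus, was at 197 against 199 CPM. Jchain, which joins secreted IgM and IgA, was at 973 ± 634 against 917 ± 496 CPM (SD), and Mzb1, an ER chaperone of antibody chains, at 206 against 170 CPM. Slamf7, a surface receptor also found on plasma cells, was at 280.3 ± 320 against 174.99 ± 225 CPM, with log2 ratios of 0.84 and 0.68.

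Ighm exceeded Ighg1 in 9 of 40 PB wells (22.5%, 10.8 to 38.5%) and in 10 of 47 DZ wells (21.3%, 10.7 to 35.7%). Both were at 100 CPM or more in 4 of 40 PB and 13 of 47 DZ wells. Ighg1 was at 1971 CPM in PB and 2223 CPM in DZ by means, and Ighm at 1217 and 945 CPM. Of the 9 antibody constant region genes at 20 CPM, 1 was called higher (11.1% against 8.61% of all genes) and 1 lower (11.1% against 9.22%). Ighe was called higher, but 99.6% of its PB reads came from 1 of the 3 PB wells that read it. Ighg3 was called lower, with 80.5% of its DZ reads in 1 of 6 wells.

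Among the other lists, DNA repair genes of the hypermutation list were lower too, 16 of 22 by both measures. Of the 22, 5 were called lower (22.7% against 9.22% of all genes), among them Neil3, Exo1, Apex1 and Polq, and none higher. Without the 5 deep wells the call of Exo1 was lost. Apex1, which cuts abasic sites, was at 23.9 against 84.8 CPM by means and was read in 13 PB and 25 DZ wells. Of 33 genes of MYC growth and ribosome biogenesis, 4 were called lower (Nop16, Polr1a, Nolc1 and the chaperonin Hspd1), 12.1% against 9.22% of all genes, and none higher. Without the 5 deep wells the call of Nop16 was lost. Hspd1 was at 115.4 against 293 CPM by means, with log2 ratios of -2.18 and -1.34. In the unfolded protein response list, 1 of 26 was called (3.85% against 8.61% of all genes), Ssr4 of the translocon, higher at 76.7 against 20.6 CPM. Of 22 B cell receptor genes, 12 were higher by both measures and 4 lower by both. Of them 1 was called higher (4.55% against 8.61% of all genes) and none lower. It was Cd72, an inhibitory coreceptor, at 51.9 ± 113.1 against 18.9 ± 52.6 CPM (mean ± SD), a call lost without the 5 deep wells. Ribosomal proteins, glycolysis and oxidative phosphorylation had median log2 ratios of 0.09, -0.07 and -0.05 by sums and -0.13, -0.08 and -0.15 by means. With TMM factors the sums gave 0.27, 0.10 and 0.13, and without the 5 deep wells -0.24, -0.18 and -0.21. Of the 35 ribosomal protein genes, 27 were then lower and 6 higher by both measures.

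**Figure D5:**
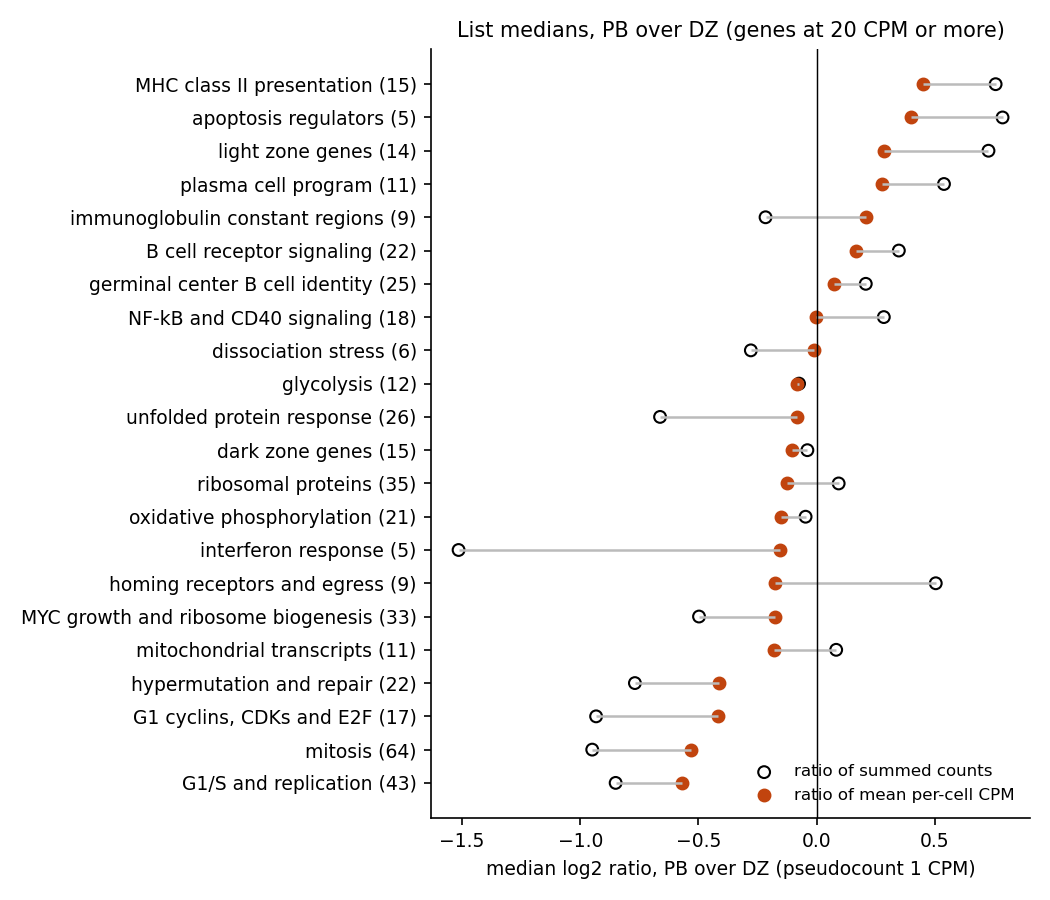
Median log2 ratio of PB over DZ wells for each list with 5 or more genes at 20 CPM (number in brackets), by summed counts (open circles) and by mean per-cell CPM (filled). By means, G1/S and replication and mitosis lie lowest (-0.57 and -0.53) and class II presentation highest (0.45), while by sums the 5 genes of the interferon list lie lowest (-1.51).

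The fold rule still held by sums without any 1 well for 241 genes higher (3.79%) and 377 genes lower (5.93%) in PB wells. The 24 genes named by rank from them, 12 in each direction, were read in 14 to 20 PB wells where higher and in 16 to 23 DZ wells where lower. Among the 12 lower in PB were Cenpk of the kinetochore (10 PB and 19 DZ wells, log2 ratios -4.62 and -3.40), the damage kinase Atm (-2.97 and -3.68), the RNA-binding Igf2bp3 (-2.87 and -3.31), the cationic amino acid transporter Slc7a1 (-3.65 and -2.72), the autophagy gene Atg16l1 (-3.99 and -2.62), and Ly75, which encodes the endocytic receptor DEC-205 (-2.90 and -2.57). Slc7a1 was at 0 to 593 CPM in PB and 0 to 1422 CPM in DZ wells, and was read in 10 and 23 wells. Sde2, Rab2a, Traip, Herc3, Polq and Mthfd1l were the others. Among the 12 higher were Strn, a scaffold of phosphatase complexes (15 PB and 13 DZ wells, 4.44 and 3.72), the splicing regulator Mbnl2 (3.27 and 3.301), the RNA-binding Stau1 (3.33 and 2.88), Acadvl of fatty acid oxidation (3.35 and 2.75) and the lysosomal protease Ctsd (2.93 and 2.36). Ctsd was read in 15 PB and 4 DZ wells and Acadvl in 17 and 6. One PB well held 69.98% of the Strn reads. Aimp2, Gdap2, Foxn3, Fcho2, Arap1, Vps37a and Lrch3 were the others.

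Leaving out PB wells A11 and B11 left the counts at 574 higher and 656 lower. The medians without them were -0.94 and -0.53 for mitosis, -1.09 and -0.59 for G1/S and replication, and 0.81 and 0.46 for class II, by sums and by means. Ccnd3 was then at -1.04 and -0.52 and H2-Oa at 2.11 and 0.85.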

How the data were processed

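SmartSeq2 libraries of single sorted cells were read; the authors' deposited table of experiment 1 holds expected counts per gene and well, not normalized. The submitters' processing notes list the build mm10 and the tools RSEM 1.3.1, STAR 2.6 and Seurat 3.1.4, and do not say what each did. The expected counts were rounded to whole numbers, and rows that share a symbol (111 of 55487) were summed. Counts were scaled to CPM per well or per summed set, with a pseudocount of 1 CPM; genes needed 20 CPM in either set by sums. The deposited percent of mitochondrial counts per the authors' cell table, which lists 42 of the DZ wells and 0 PB wells, had a median of 12.4% over those wells, against 12.0% from the counts. No test was run, with 1 sample a set. Shares of wells have exact binomial (Clopper-Pearson) and sums exact Poisson 95% intervals. PCR reads without molecular identifiers are not independent molecules. In the tables of experiments 1, 3 and 4, 633 columns of other groups were not used. Named genes met the fold rule, kept it by sums without any 1 well, were read in at least 1 in 3 wells of the higher set, and ranked in the first 12 by the smaller log2 ratio; list members were also named, and some members are not reported here. The members and lists were chosen with earlier results of these data known. The fold rule was run on simulated wells that shared a common profile, in which only abundant genes were changed, by well over 2-fold. That run does not show how the rule finds changes near 2-fold or near 20 CPM. Nor does it cover genes with most reads in 1 well. edgeR 4.0.16 and DESeq2 1.42.0 (R 4.3.3) gave scaling factors for the alternatives; Python 3.11.15, numpy 2.4.6, pandas 2.3.3 and scipy 1.17.1 did the rest. Symbols were matched to GENCODE M21 (98.4%).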

Additional observations from a re-analysis of the deposited data

How the results depend on the processing

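No paired analysis was possible because each set is 1 sample and the wells share no replicate. The counts of 547 higher and 586 lower genes became 302 and 321 with a pseudocount of 10 CPM, 1576 and 1816 with no filter on low values, 311 and 272 with a filter at 50 CPM, and 1306 and 1377 by summed counts alone, a rule chosen after seeing the data. Thinning each well gave 974 higher, while leaving out each well in turn gave 512 to 566 higher and 542 to 623 lower. TMM and DESeq2 factors moved the median of all genes from -0.09 to 0.12 and 0.17 on the log2 scale.

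Ccnd3, at -0.94, was at -0.49 by means, -0.76 with TMM, -0.72 with DESeq2 size factors and -0.37 with thinned wells. It was at -1.04 without the PB wells of more than 10000 genes, at -0.64 without wells of 2000000 or more counts, and at -0.99 to -0.56 with each well left out. H2-Oa, at 1.96, was at 0.81 by means, 1.82 with a pseudocount of 10 CPM, 2.13 with TMM, 2.17 with DESeq2 size factors, 0.96 with thinned wells, 2.11 without the PB wells of more than 10000 genes, 0.31 without wells of 2000000 or more counts, and 1.51 to 2.09 with each well left out. Without those deep wells the signs of Bmf (-1.81), Ighe (-2.95), Nr4a1 (-1.43) and Rpl37 (-0.72) turned, as did the medians of the homing receptors (-0.32; -0.17 by means, -0.26 thinned), of the apoptosis regulators (-0.0083), of germinal center identity (0.21 to -0.08), dark zone genes (-0.04 to 0.12), mitochondrial transcripts (0.08 to -0.20) and ribosomal proteins (0.09 to -0.24). The cause was not tested. The alternatives without deep wells, without the PB wells of more than 10000 genes and without row F were chosen after seeing the data. Reads per well limit what can be called not read.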
